A study of Mus musculus with 10 samples.

Results

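Expression of 10 genes of heart and limb development was followed in mouse embryos with and without *Wwc2*: 8 T-box genes (*Tbx1*, *Tbx2*, *Tbx3*, *Tbx4*, *Tbx5*, *Tbx15*, *Tbx18* and *Tbx20*), the basic helix-loop-helix gene *Hand2* and the homeobox gene *Nkx2-5*. They were chosen by symbol and are 10 of the 24302 genes in the deposited tables. The RNA came from whole C57BL/6 embryos at embryonic day (E) 11.5. The groups were 3 wildtype embryos (*Wwc2*+/+), 3 embryos heterozygous for a deletion of *Wwc2* (KO/+) and 4 embryos with both alleles deleted (KO/KO), here called KO embryos, and both deletions came from a *Zp3*-Cre line. The *Zp3* promoter drives Cre recombinase in the growing oocyte, so a deletion made there reaches all cells of the embryo and its extraembryonic tissues. The study's methods give the loss of maternal as well as zygotic *Wwc2* expression as the aim of this cross. A list of genotypes in the study names this line for its wildtype embryos too. The question behind the comparison was which transcripts change when WWC2, an upstream component of the Hippo pathway, is lost.

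T-box factors bind DNA through a shared domain, and several of them act in heart and limb in opposing ways: TBX5 and TBX20 work with NKX2-5 and GATA4 to switch on genes of the heart chambers, while TBX2 and TBX3 repress the same genes in the atrioventricular canal and the conduction system. In the limb buds TBX5 marks the forelimb and TBX4 the hindlimb, TBX2 and TBX3 lie along the margins, TBX15 and TBX18 are made in mesenchyme, and HAND2 acts upstream of Sonic hedgehog in the posterior part. NKX2-5 is among the earliest factors of cardiac progenitors, and HAND2 is also needed in the right ventricle, the pharyngeal arches and sympathetic neurons.

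Of the 10 genes, 3 differed between KO and wildtype embryos at an adjusted p under 0.05, as did 25.8% of 17477 tested genes. *Nkx2-5* was 2.87-fold higher in KO embryos, a call that is lost when libraries are scaled by their summed counts. *Tbx15* was 2.90-fold lower. *Tbx2* was 1.67-fold lower, a call that is lost when p-values are adjusted without the filter on low means. Between KO and heterozygous embryos 2 genes differed, *Tbx15* and *Tbx18*, both lower in KO embryos, beside 21.4% of 20653 genes. Both calls are lost with the upper limit of the derived standard error, under which only 142 of all genes stay called. None of the 10 passed the test between heterozygous and wildtype embryos. In KO versus wildtype embryos the 10 had a median of -0.14 in log2 units, beside 0.05 over all 20653 genes with a p-value.

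The deposited tables give, for each gene, 1 mean normalized count over all 10 embryos (a read count divided by the size factor of its library), a log2 fold change with its standard error (SE), and a p-value from DESeq2, Benjamini-Hochberg adjusted. Values for single embryos were not used here, so the mean of each genotype was derived from the overall mean and both fold changes, with a 95% interval from the spread that the standard errors imply. Whether single embryos of the groups overlapped cannot be read from such values. A gene is called below when its adjusted p is under 0.05.

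Promoter sequence of 6 of the genes, from RefSeq on GRCm38.p6, was searched for 4 short motifs on both strands. No stretch was at hand for *Tbx2*, *Tbx3*, *Tbx5* and *Tbx15*, so both members called lower against wildtype embryos are missing. The 3 stretches shown belong to the member that rose (*Nkx2-5*), one called lower only against heterozygous embryos (*Tbx18*) and one that passed in no comparison (*Hand2*). Each runs 5′ to 3′ on the strand of its gene and lies within the 250 bases before the RefSeq start, which for *Nkx2-5* is inside the longer GENCODE gene, with capitals marking motif matches.
Nkx2-5, chr17:26841609-26841815, minus strand: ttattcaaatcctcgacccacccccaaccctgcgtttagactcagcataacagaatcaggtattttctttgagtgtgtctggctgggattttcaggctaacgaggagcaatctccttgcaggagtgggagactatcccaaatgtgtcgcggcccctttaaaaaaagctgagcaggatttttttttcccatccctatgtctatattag
Tbx18, chr9:87731261-87731510, minus strand: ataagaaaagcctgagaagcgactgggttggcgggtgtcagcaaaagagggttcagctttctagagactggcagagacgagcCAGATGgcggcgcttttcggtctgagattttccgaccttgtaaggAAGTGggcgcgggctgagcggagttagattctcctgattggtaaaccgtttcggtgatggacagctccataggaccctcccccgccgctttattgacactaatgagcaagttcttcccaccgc
Hand2, chr8:57320733-57320982, plus strand: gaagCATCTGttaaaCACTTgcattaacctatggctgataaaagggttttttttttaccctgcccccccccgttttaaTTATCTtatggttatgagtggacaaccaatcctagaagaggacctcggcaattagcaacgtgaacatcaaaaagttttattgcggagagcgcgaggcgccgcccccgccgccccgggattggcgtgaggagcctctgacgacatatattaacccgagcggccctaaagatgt
The motif of the T-box family was searched as GGTGTGA, and it is in none of the stretches of the 6 genes, while 3.33% of 32851 promoters of the full length hold it. An NKX2-5 core, in the letters AAGTG, lies 123 bases before the start in the *Tbx18* stretch and 235 bases before it in the *Hand2* stretch, and 40.7% of promoters hold one. For the factors that work beside them, a GATA core was searched as AGATAA and found in the *Hand2* stretch at 172 bases, with 9.99% of all promoters holding a match. The last motif was an E-box of the kind that HAND proteins bind, with the letters CATCTG. It lies at 168 bases in the *Tbx18* stretch, at 246 in the *Hand2* stretch and at 111 in that of *Tbx4*, and 14.4% of promoters hold it. The *Nkx2-5* stretch, of 207 bases after annotated exon bases were taken off, holds none of the 4. The matches do not overlap one another, and each describes the letters and no more.

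*Nkx2-5* (ENSMUSG00000015579, chromosome 17 of GRCm38, 26838664 to 26845009, minus strand) had the lowest raw level of the 10 in wildtype embryos and the largest increase. In derived normalized counts its mean was 113 in wildtype embryos (95% interval 61.7 to 208), 140 in heterozygous (76.6 to 257) and 326 in KO embryos (193 to 548). The intervals of wildtype and KO embryos overlap slightly, and the heterozygous value lies near the wildtype one. The log2 fold change in KO versus wildtype embryos was 1.52 (SE 0.59, 95% interval 0.37 to 2.68), with an adjusted p of 0.0419 from DESeq2. Scaled by summed counts it was 1.28 and did not pass (adjusted p = 0.0706). Against heterozygous embryos it was 1.21 (SE 0.59, interval 0.06 to 2.37), and the adjusted p of 0.119 from the derived Wald test did not pass. For heterozygous versus wildtype embryos the value was 0.31, with an interval of -0.93 to 1.55 that leaves room for large changes in both directions.

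The next heart factor, *Tbx20* (ENSMUSG00000031965, chromosome 9, 24718138 to 24774303, minus strand), needed for growth of the heart chambers, showed values in the same order. Its derived mean was 264 in wildtype (202 to 345), 320 in heterozygous (246 to 418) and 391 in KO embryos (311 to 492). The KO versus wildtype log2 fold change of 0.57 (SE 0.26, interval 0.06 to 1.07) had an unadjusted p of 0.0290 and an adjusted p of 0.0852 from DESeq2, so it was not called. The heterozygous mean lies between the others, and neither of its differences passed.

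*Hand2* (ENSMUSG00000038193, chromosome 8, 57320983 to 57324633, plus strand) and *Tbx1* (ENSMUSG00000009097, chromosome 16, 18580979 to 18590671, minus strand), a factor of the pharyngeal arches and the outflow tract, were close in the 3 genotypes. *Hand2* had means of 1086, 1113 and 1187 normalized counts from wildtype through heterozygous to KO embryos, and *Tbx1* had 357, 379 and 406. In KO versus wildtype embryos the log2 fold change of *Hand2* was 0.13 (interval -0.36 to 0.62), which turns to -0.12 when libraries are scaled by their summed counts. That of *Tbx1* was 0.18 (interval -0.22 to 0.59) and turns to -0.06 under that scaling. Both intervals hold changes of up to about 0.6 in log2 units, and no equality follows from them.

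*Tbx18* (ENSMUSG00000032419, chromosome 9, 87702800 to 87731260, minus strand), made in the epicardium, the sinus venosus, the somites and the limb mesenchyme, was lower in KO embryos. Its derived mean was 882 in wildtype (690 to 1129), 1015 in heterozygous (794 to 1298) and 622 in KO embryos (502 to 770). The KO and heterozygous intervals do not overlap, whereas those of KO and wildtype embryos do. Against heterozygous embryos the log2 fold change was -0.71 (SE 0.24, interval -1.18 to -0.24), with an adjusted p of 0.0227 from the derived Wald test. Against wildtype embryos it was -0.50 (SE 0.24, interval -0.98 to -0.03), with an adjusted p of 0.0983 from DESeq2, so this difference was not called. Scaled by summed counts it was -0.75 and passed (adjusted p = 0.00814). A call in 1 comparison and none in the other does not show that the controls differ, and the heterozygous to wildtype value itself was 0.20 (interval -0.30 to 0.70).

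**Figure D1:**
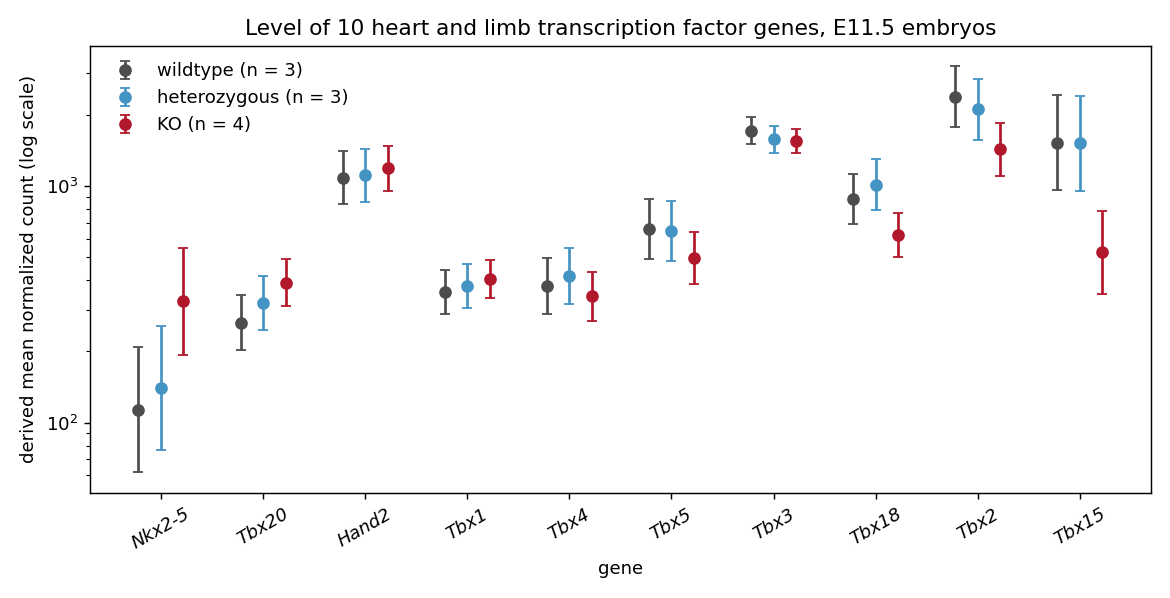
Derived mean normalized count (vertical axis, log scale) of each of the 10 genes in wildtype (n = 3), heterozygous (n = 3) and KO embryos (n = 4). Points are genotype means and bars their 95% intervals. The KO bar lies below both other bars for *Tbx15*, below the heterozygous bar for *Tbx18*, and for *Nkx2-5* the KO point of 326 stands above the wildtype point of 113.

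*Tbx15* (ENSMUSG00000027868, chromosome 3, 99240381 to 99354259, plus strand), which acts in limb skeleton and skin patterning, had the smallest p of the 10. The derived mean was 1524 in wildtype (959.7 to 2419), 1516 in heterozygous (955 to 2407) and 525 in KO embryos (351 to 785). The KO interval lies below both others, and the wildtype and heterozygous means nearly coincide. The log2 fold change in KO versus wildtype embryos was -1.54 (SE 0.45, interval -2.42 to -0.65), with an adjusted p of 0.00763 from DESeq2. Against heterozygous embryos it was -1.53 (SE 0.45), with an adjusted p of 0.00867 from the derived Wald test. In heterozygous versus wildtype embryos the value was -0.01 (0.0021 when scaled by summed counts), with an interval of -0.95 to 0.94.

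*Tbx2* (ENSMUSG00000000093, chromosome 11, 85832551 to 85841948, plus strand), a repressor of chamber genes in the atrioventricular canal that is also made in limb margins, was lower in KO than in wildtype embryos. Its derived mean was 2388 in wildtype (1775 to 3211), 2110 in heterozygous (1568 to 2838) and 1431 in KO embryos (1107 to 1851). The intervals of wildtype and KO embryos overlap slightly. The log2 fold change was -0.74 (SE 0.29, interval -1.30 to -0.17), with an adjusted p of 0.0440 from DESeq2, close to the threshold. When p-values were adjusted over all genes with a p-value, without the table's filter on low means, it became 0.0520 and the call was lost. Against heterozygous embryos the value was -0.56 (SE 0.29), with an adjusted p of 0.147.

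*Tbx3* (ENSMUSG00000018604, chromosome 5, 119670669 to 119684724, plus strand), the closest relative of *Tbx2* and a repressor in the same regions of heart and limb, had a much smaller value. The derived mean of *Tbx3* was 1711 in wildtype (1500.2 to 1951), 1580.3 in heterozygous (1385 to 1802) and 1548 in KO embryos (1381 to 1735). The log2 fold change in KO versus wildtype embryos was -0.14 (SE 0.13, interval -0.40 to 0.11) and the adjusted p 0.395 from DESeq2. Its interval leaves out a decrease as large as the point value of *Tbx2*, but the difference between both genes was not tested. Scaled by summed counts, *Tbx3* had a value of -0.39 and passed (adjusted p = 0.00974).

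The limb identity factors did not pass in any comparison. For *Tbx5* (ENSMUSG00000018263, chromosome 5, 119832668 to 119885219, plus strand), a factor of the forelimb bud and the heart chambers, the derived mean was 661 in wildtype (494 to 885), 647 in heterozygous (483 to 866) and 497 in KO embryos (385 to 640). Its log2 fold change in KO versus wildtype embryos was -0.41 (SE 0.29, interval -0.97 to 0.15, adjusted p = 0.264 from DESeq2). For *Tbx4* (ENSMUSG00000000094, chromosome 11, 85886422 to 85916097, plus strand), the hindlimb factor, the means were 378, 417 and 342, and the log2 fold change was -0.14 (SE 0.27, interval -0.67 to 0.39, adjusted p = 0.715). For each of the 2 genes the intervals of all 3 genotypes overlap.

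**Figure D2:**
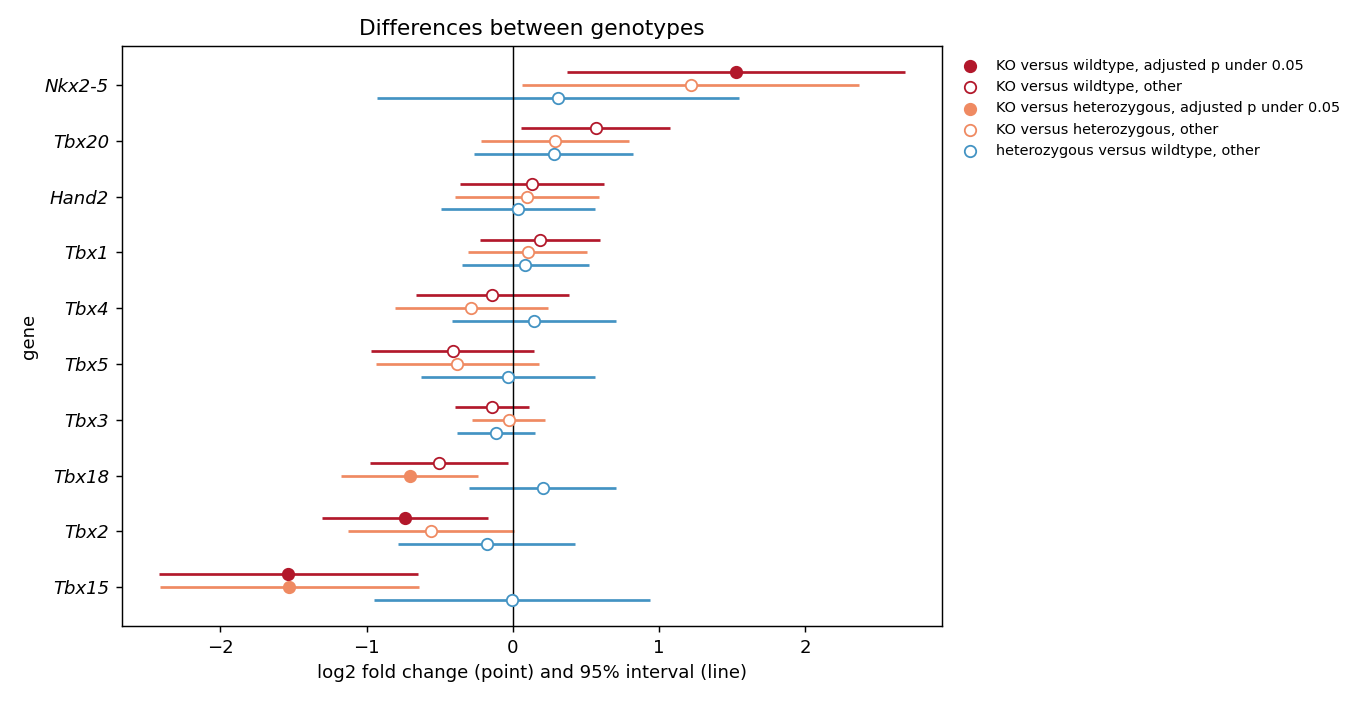
Log2 fold change (horizontal axis) of each gene in KO versus wildtype, KO versus heterozygous and heterozygous versus wildtype embryos, with 95% intervals as lines. Filled points had an adjusted p under 0.05: *Nkx2-5*, *Tbx2* and *Tbx15* in KO versus wildtype and *Tbx15* and *Tbx18* in KO versus heterozygous embryos.

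The share of calls among the 10 genes was near the share over all genes, so the calls describe single genes and not the group. In KO versus wildtype embryos 3 of 10 were called, 1 higher and 2 lower, beside 25.8% of 17477 tested genes (15.6% higher and 10.2% lower) in the deposited DESeq2 table, and 5 of the 10 had an unadjusted p under 0.05. All 10 were among the tested genes, whose lowest mean was 2.44 normalized counts. In KO versus heterozygous embryos 2 of 10 were called, both lower, beside 21.4% of 20653 genes (13.2% higher and 8.22% lower), and 3 of the 10 had an unadjusted p under 0.05. In heterozygous versus wildtype embryos 0 of 10 were called by DESeq2 and 0 had an unadjusted p under 0.05, beside 2 called genes (0.00968%, with 0.00484% higher and 0.00484% lower) and 75 with an unadjusted p under 0.05 among 20653. The calls depend on the reference distribution: with 7 degrees of freedom and a t in place of the normal distribution, 0 of 10 were called in each comparison. The same setting called 0 of all genes in each comparison, so that count says nothing particular to the 10. Comparisons that involve KO embryos share those embryos, so their values are not independent of each other.

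Of the 8 T-box genes 4 lie in pairs of neighbours. *Tbx2* and *Tbx4* lie 44.5 kb apart on chromosome 11, and their log2 fold changes in KO versus wildtype embryos were -0.74 and -0.14. *Tbx3* and *Tbx5* lie 148 kb apart on chromosome 5, with values of -0.14 and -0.41. Within each pair the 95% intervals of these values overlap, and no difference between neighbours was tested.

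Genes annotated on the opposite strand overlap 4 of the members. *Hand2os1* shares 461 bases with *Hand2* exons, 19.6% of their length, and *D030062O11Rik* shares 970 bases with *Tbx18* exons, 20.6%. *Tbx3os1* shares 115 bases with *Tbx3* exons, and *Gm43120* lies within *Tbx15* without sharing exon bases. The libraries were prepared with a directional kit in the study's methods, but the strand setting of the read counting is not given in the sources used here, so reads of the overlapping parts cannot be told apart.

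The spread between embryos that the standard errors imply differed widely among the 10 genes. It is the square root of the derived dispersion, taken as equal in all genotypes and without counting noise. It was not measured on single embryos. *Nkx2-5* had an implied standard deviation (SD) of 52.9% of its mean and *Tbx15* one of 40.8%, beside medians of 23.9% and 16.2% over genes with a mean within 2-fold of theirs. Of those genes 93.7% had a lower SD than *Nkx2-5* and 97.3% a lower SD than *Tbx15*. *Tbx2* had 26.1%, and 88.6% of comparable genes lay lower. At the other end, *Tbx3* had an SD of 11.4%, with 22.5% of comparable genes below it, and *Tbx1* one of 18.1%, with 41.8% below. The remaining 5 genes had SDs between 21.5% (*Tbx18*) and 25.5% (*Tbx5*). All 3 genes called in KO versus wildtype embryos therefore also had the largest implied SDs of the 10, and which embryos carried that spread cannot be read from the tables.

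**Figure D3:**
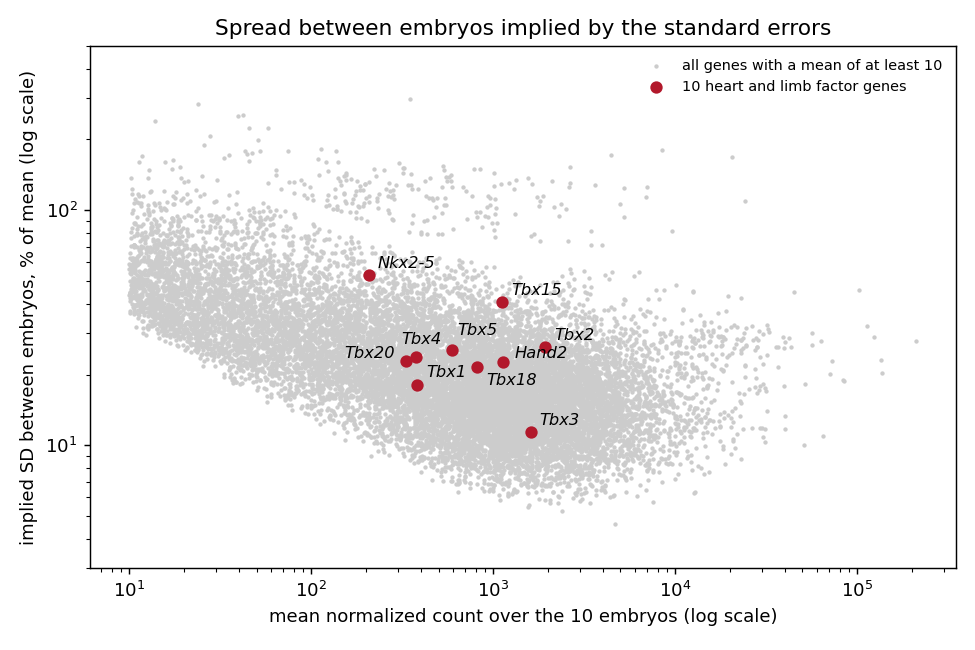
Implied standard deviation between embryos in percent of the mean (vertical axis, log scale) against mean normalized count over the 10 embryos (horizontal axis, log scale). Grey points are all genes with a mean of at least 10 and red points the 10 heart and limb genes. *Nkx2-5* (52.9%) and *Tbx15* (40.8%) lie high for their level and *Tbx3* (11.4%) low.

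Levels of different genes were compared per kilobase of exon (GENCODE M21). In wildtype embryos *Tbx2* was the most abundant with 658 normalized counts per kb, followed by *Hand2* with 462, *Tbx15* with 407, *Tbx3* with 258 and *Tbx18* with 187. *Tbx5* had 141 counts per kb, *Tbx4* 111, *Tbx1* 102, *Nkx2-5* 65.9 and *Tbx20* 22.0. The 95% intervals of neighbours in this order overlap except those of *Nkx2-5* and *Tbx20*. That order rests on annotated exon lengths, 1.72 kb for *Nkx2-5* and 12.0 kb for *Tbx20*, and the intervals carry no error of length. Before division by length the wildtype mean of *Tbx20* (264) was above that of *Nkx2-5* (113). In KO embryos *Hand2* stood first with 505 counts per kb, and *Nkx2-5* moved from rank 9 to rank 4 with 189. *Tbx15* moved from rank 3 to rank 5 with 140 counts per kb.

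The 3 genes whose pattern over the genotypes was most like that of *Tbx15* were *Cdh4*, a cadherin, *Nol4* and *Elmod1*, at Euclidean distances of 0.0451, 0.0460 and 0.0511 in the 2 log2 fold changes against wildtype. Their log2 fold changes in KO versus wildtype embryos lay between -1.59 and -1.49, and in heterozygous versus wildtype embryos they were -0.01, 0.02 and -0.02. The likeness rests on 3 genotype means only.

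The embryos differed in more than these genes, and all values come from whole embryos, in which fewer cells of a type and less RNA per cell cannot be told apart. KO embryos were growth retarded at this age by the study's description, and a change of genotype cannot be told apart from such a difference. *Wwc2* itself had means of 1971, 1860.3 and 2420.5 normalized counts from wildtype through heterozygous to KO embryos (KO versus wildtype 0.30 in log2 units, SE 0.17, adjusted p = 0.176 from DESeq2). Reads over the whole gene are summed in it, and the genotypes are not checked by it. The study determined genotypes by PCR and found WWC2 protein missing in KO embryos of this age by Western blot. Of 16 trophoblast and decidua markers 13 were called higher and 0 lower in KO against wildtype embryos (median 5.45 in log2 units), and 0 markers were at 0. Summed over the markers, wildtype embryos had 13078 normalized counts, heterozygous embryos 2923 and KO embryos 56063. A single decidual marker, *Prl8a2*, made up 12165 of the wildtype sum, against 535 in heterozygous and 11709 in KO embryos. The markers *Psg21*, *Tpbpb* and *Psg23* had log2 fold changes of 7.36, 6.91 and 6.88 in KO versus wildtype embryos. Among the 10 genes *Hand2* is also made in the decidua, and the part of these tissues in its value or in that of any member was not tested. Over all genes, the summed counts of KO embryos exceeded those of wildtype embryos by 0.25 log2 units. A scaling to equal sums lowers each value in KO versus wildtype embryos by 0.25 and gives 4 lower members (*Tbx2*, *Tbx3*, *Tbx15* and *Tbx18*) and 0 higher. Under it 5409 of all 17477 tested genes were lower and 1437 higher, and the scaled counts below are read beside these.

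Of the other T-box genes, 2 of 8 tested were called higher and 0 lower in KO against wildtype embryos (median -0.09), and with the scaling to equal sums 1 was lower (*Tbx22*). Over all tested genes 15.6% were called higher and 10.2% lower, so the count is read for single genes only. The 2 higher genes were *T* (2.24, SE 0.69, adjusted p = 0.0108 from DESeq2) and *Tbx6* (1.92, SE 0.66, adjusted p = 0.0219), both factors of early mesoderm, in the primitive streak and tail bud. From wildtype through heterozygous to KO embryos the means of *T* were 38.9, 26.4 and 183 normalized counts and those of *Tbx6* 19.1, 11.9 and 72.1.

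Partners and targets of the 10 factors in the heart are read beside all genes, of which 15.6% were called higher and 10.2% lower in KO against wildtype embryos. Of 20 other cardiac transcription factors 7 were called higher and 2 lower in KO against wildtype embryos. The list had a median of 0.60 beside 0.02 over all 17477 tested genes, and the scaling gave 2 higher (*Hand1* and *Gata6*) and 3 lower. *Hand1*, a factor of the left ventricle and of trophoblast giant cells, had 2.99, *Gata6* 1.35 and *Mef2d* 1.02 (adjusted p = 1.26e-06, 0.0190 and 0.0158 from DESeq2). *Isl1*, a factor of the second heart field and motor neurons, was lower (-0.74, adjusted p = 0.0334), and *Gata4* had 0.60 (SE 0.37, adjusted p = 0.202). Of 23 heart muscle genes 4 were higher, a share near that of all genes, and 0 lower (3 and 1 with the scaling to equal sums), with a median of 0.48. *Nppa*, a natriuretic peptide gene that NKX2-5 and TBX5 activate and TBX2 represses, had means of 1075, 1181 and 4894 normalized counts from wildtype through heterozygous to KO embryos (log2 fold change 2.19, adjusted p = 0.00606). *Nppb* had a value of 2.34 and the myosin gene *Myh7* one of 1.61 (adjusted p = 1.90e-04 and 0.0285). *Gja5*, a gap junction gene with a like set of regulators, had -0.91 (SE 0.53) and did not pass (adjusted p = 0.183).

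Limb bud genes were called in both directions, and with the scaling to equal sums 2 were higher and 10 lower, *Pitx1* among the latter. Over all 17477 tested genes that scaling gave 1437 higher and 5409 lower. Of 30 genes 3 were called higher and 4 lower in KO against wildtype embryos (median -0.22). Over all tested genes 15.6% were called higher and 10.2% lower. The counts of the list are near these shares and describe single genes. *Fgf8*, the signal of the apical ridge that is also made in many other embryonic regions, had 1.88 and *Sall4* 1.15, whereas *Shox2*, a factor of the proximal limb and the sinus node, had -1.12 (adjusted p = 2.95e-06, 0.00877 and 0.0124 from DESeq2). *Fgf10*, a target of TBX5 in the limb, had 0.30 (SE 0.41, adjusted p = 0.598). *Shh*, downstream of HAND2, had -0.10 (SE 0.47, adjusted p = 0.885), and *Pitx1*, which lies upstream of *Tbx4* in the hindlimb, -0.72 (SE 0.39, adjusted p = 0.144). None of these 3 passed the test, nor did *Tbx5*, *Hand2* and *Tbx4*, and no link between these genes and the factors was tested.

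In the tissues of *Tbx18*, *Tbx2* and *Tbx1* the calls were divided as well, and the scaling to equal sums left 1 or 2 higher genes in each list and gave 7, 6 and 9 lower ones, in the order below. Over all 17477 tested genes it gave 1437 higher and 5409 lower. As deposited, 15.6% of all tested genes were called higher and 10.2% lower, and the counts of the 3 lists are read beside these shares. Of 14 epicardium and pacemaker genes 4 were called higher and 3 lower in KO against wildtype embryos (median 0.04). Among the higher were the mesothelial genes *Upk1b* (1.51) and *Upk3b* (means of 317 in wildtype and 896 in KO embryos) and the myocyte gene *Popdc2* (1.18). The 3 lower genes included *Shox2* (-1.12) and *Isl1* (-0.74). Of 15 valve cushion and outflow tract genes 3 were higher and 3 lower, with a median of -0.02. *Hapln1*, a matrix link protein, had 1.67, the growth factor *Bmp4*, which lies upstream of *Tbx2* in several tissues, 0.76, and *Nfatc1* of the endocardium -0.93. Of 19 tested pharyngeal arch genes 2 were higher and 3 lower, with a median of -0.22, including *Edn1* (3.72), which signals to *Hand2* in the arches, and *Pax1* (-1.07). In heterozygous versus wildtype embryos 0 genes of any of these lists were called by DESeq2.

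**Figure D4:**
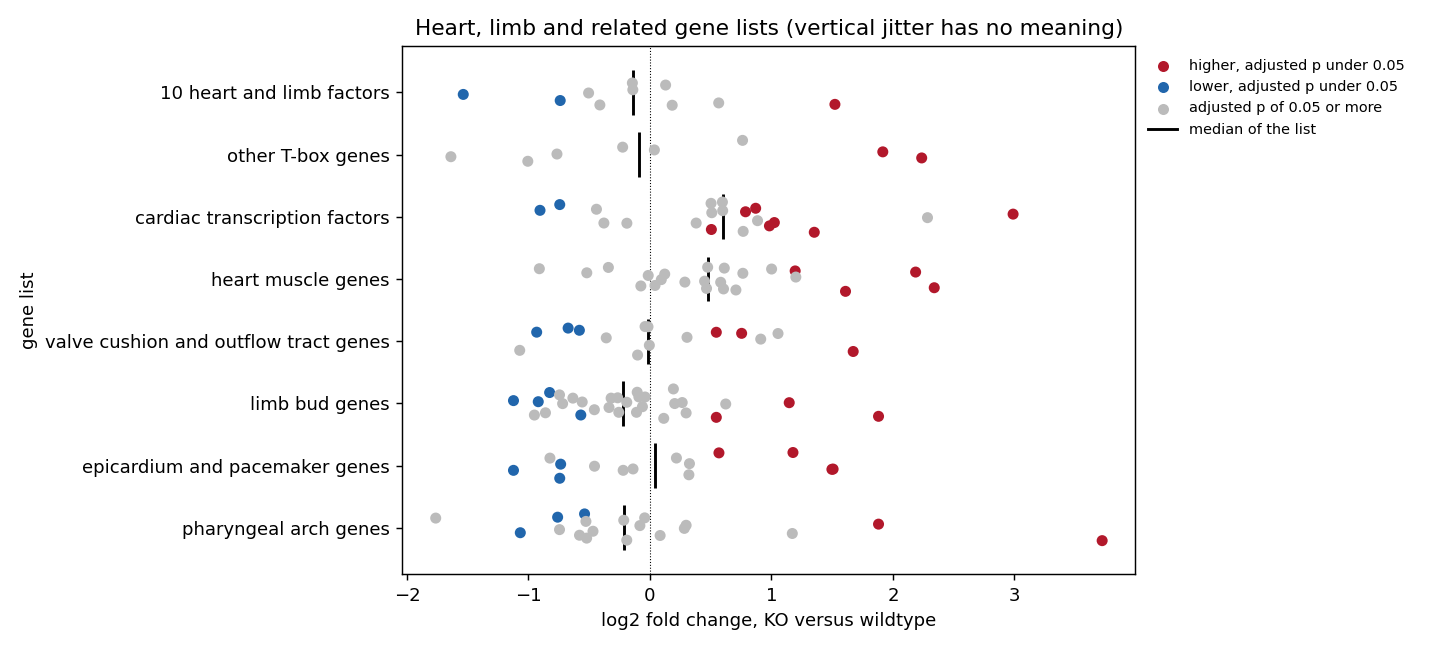
Log2 fold change in KO versus wildtype embryos (horizontal axis) of the 10 heart and limb genes and of 7 gene lists (rows), 1 point a gene. Red points were higher and blue points lower at an adjusted p under 0.05, and black bars are medians, from 0.60 for cardiac transcription factors to -0.22 for limb bud genes. Height within a row carries no value.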

How the data were processed

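Per the labels and the study's methods, poly(A) RNA of single E11.5 embryos was sequenced, trimmed with Trimmomatic 0.33, aligned to mm10 with HISAT2, counted per gene with HTSeq and tested with DESeq2 by the authors. The labels name an NEBNext Ultra kit, the methods its directional version. The annotation and strand setting of the counting are not given in the sources used here. The deposited tables hold the authors' own 2 comparisons: per gene a mean normalized count (a signal scaled by size factors, over all 10 embryos), a log2 fold change, its standard error, a Wald statistic, a p-value and an adjusted p-value. Means were identical in both tables, so both come from 1 fit. The log2 fold changes, errors and p-values of these tables are printed as deposited.

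From them the mean of each genotype, the dispersion and 95% intervals (normal) were computed with Python 3.11.15, numpy 2.4.6, pandas 2.3.3 and scipy 1.17.1. A Wald test of KO versus heterozygous embryos (Benjamini-Hochberg over 20653 genes) was derived in the same way. Whether it matches a DESeq2 test of those embryos was not tested, since the authors' 2 comparisons do not include one. The summed mean normalized counts of 2.56e+07 stand for the depth, since depths of single libraries were not used. No source says whether embryos shared litters.

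The 10 genes and the 9 lists were chosen with earlier results of these data known, and 1 list is not reported here. Named from each list were up to 3 genes with the largest called log2 fold change in KO versus wildtype embryos, and *Nppa*, *Gja5*, *Fgf10*, *Shh*, *Gata4*, *Isl1*, *Pitx1* and *Shox2* in any case, *Prl8a2* being added after its values were seen. Likeness to *Tbx15* was ranked over genes with a mean of at least 100. The 6 alternatives run were another scaling, another adjustment, a t distribution, a fold threshold, a filter on low means and an upper limit of the derived error.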

Additional observations from a re-analysis of the deposited data

How the results depend on the processing

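The tables hold no values per embryo, so no result could be recomputed without single embryos, and another normalization or count test could not be run. No paired analysis was possible because the tables hold no values per embryo to which a replicate number could be tied. With 7 degrees of freedom and a t in place of the normal reference, 0 of the 10 genes were called in KO versus wildtype embryos and 0 in KO versus heterozygous embryos, as were 0 of all genes (beside 4508 and 4418). The adjusted p of *Tbx15*, *Nkx2-5* and *Tbx2* in KO versus wildtype embryos was then 0.131, 0.155 and 0.157. With a log2 fold change above 1 also required, 1 gene stayed called in KO versus heterozygous embryos (*Tbx15*; 2072 of all genes) and 2 in KO versus wildtype embryos (*Tbx15* and *Nkx2-5*; 1984 of all genes). With the upper limit of the derived standard error, 0 of the 10 were called in KO versus heterozygous embryos and 142 of all genes. That limit joins the 2 deposited errors as if independent. Both include the wildtype embryos, so it is wide for all genes and the loss is not particular to the 10. Scaled by summed counts, values turned to -0.063 (*Tbx1*) and -0.12 (*Hand2*) in KO versus wildtype embryos, to -0.16 for both in KO versus heterozygous embryos, and to 0.0021 for *Tbx15* in heterozygous versus wildtype embryos. That scaling gave 1437 higher and 5409 lower genes in KO versus wildtype embryos (2721 and 1787 as deposited) and 1427 higher and 5348 lower in KO versus heterozygous embryos (2721 and 1697). It called 3 members in KO versus heterozygous embryos, *Tbx2* being the one added (-0.82, adjusted p = 0.0192). A minimum mean of 10 changed no call among the 10 genes, and 0 were called in heterozygous versus wildtype embryos under each alternative run. The cause of these changes was not tested beyond what each alternative does by construction.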
